A study of Arabidopsis thaliana with 12 samples.

Results

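The core of the chromosome 3 pericentromere of Arabidopsis thaliana was described through 189 small RNA regions of 500 bp. They are the regions listed in the tables of both repeats whose start lies from 12800000 to below 14800000, within 1.0 Mb of a centromere position set at 13.8 Mb. They make up 189 of the 4213 regions that both tables hold, and no measured score was used to choose them from those regions. Scores were available for seedlings of 6 genotypes, 10 days old, grown on plates at 22 °C in a day of 16 h light and 8 h dark, with 2 libraries of each genotype made from total RNA of 1 g of tissue. The arid2/3/4 seedlings carried arid2-/-, arid3-/- and arid4-/- mutations together, the epcr1/2 seedlings epcr1-/- and epcr2-/- together, and the nrpd1, nrpe1 and hda6 seedlings 1 mutation each. The reference was wild type (WT). For 1 of the hda6 libraries (repeat 1) the genotype label is written in another way than its title, and the title was used. The labels name no allele, and the transcripts of the mutated genes were not analysed here.

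In plants, RNA polymerase IV (largest subunit NRPD1) starts the production of small interfering RNAs from silent repeats, and RNA polymerase V (largest subunit NRPE1) makes the scaffold transcripts to which these RNAs guide DNA methylation. HDA6 is a histone deacetylase known for silencing ribosomal RNA genes and transposons, and ARID and EPCR proteins are components of the PEAT complexes, which the series title links to histone deacetylation and silencing of heterochromatin. The core of a pericentromere is made of centromeric satellite repeats, old transposons and, on this chromosome, 1 annotated copy of the 45S ribosomal RNA unit and several stretches that resemble 5S ribosomal RNA genes.

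Sequences from 4 kinds of region carry the results and are shown from RefSeq TAIR10.1. The first kind lies within 5 kb of the annotated ribosomal RNA genes of the 45S copy. The next 3 lines give 90 bases of the plus strand of 3 such regions, at chr3:14194215-14194304, chr3:14195803-14195892 and chr3:14204624-14204713, and the capitals mark TATATAGGGG, an element known from plant promoters of RNA polymerase I.
Region from 14194001: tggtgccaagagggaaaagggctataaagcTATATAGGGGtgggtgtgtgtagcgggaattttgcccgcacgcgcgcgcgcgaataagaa
Region from 14195501: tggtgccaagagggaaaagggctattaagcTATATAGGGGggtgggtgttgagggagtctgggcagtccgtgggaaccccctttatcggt
Region from 14204501: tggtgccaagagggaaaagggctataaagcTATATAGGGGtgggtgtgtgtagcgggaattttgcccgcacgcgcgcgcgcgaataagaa
With both strands searched, the element was found in 3 of the 8 regions next to the ribosomal RNA genes, in 3 of the 189 core regions (1.59%) and in 9 of all 4213 regions (0.214%). A match is a description of the letters and not of a bound site.

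The second kind holds a stretch of 120 bases that resembles a 5S ribosomal RNA gene, as recognised from textbook knowledge, since the annotation used here marks none in the core. The stretches lie on the minus strand at chr3:14212128-14212247, chr3:14206303-14206422 and chr3:13713501-13713619, and capitals mark bases that differ from the first line. The stretches from 14206001 and 13713501 match the first line, base by base with no gaps, at 89.2% of 120 and 87.4% of 119 bases.
Region from 14212001: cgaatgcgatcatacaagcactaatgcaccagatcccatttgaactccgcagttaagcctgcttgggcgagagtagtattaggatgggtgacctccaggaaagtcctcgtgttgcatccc
Region from 14206001: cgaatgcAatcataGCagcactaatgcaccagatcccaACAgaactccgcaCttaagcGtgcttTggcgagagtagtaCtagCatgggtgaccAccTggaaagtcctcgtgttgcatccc
Region from 13713501: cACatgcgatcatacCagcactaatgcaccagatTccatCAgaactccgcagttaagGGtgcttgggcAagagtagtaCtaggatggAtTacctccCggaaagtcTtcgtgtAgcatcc

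The third kind is tandem satellite. The region from 13590501 opens with 2 units of 178 bases each, at chr3:13590501-13590678 and chr3:13590679-13590856 on the plus strand, which match at 94.4% of bases. Capitals mark the 10 bases at which they differ.
Unit 1: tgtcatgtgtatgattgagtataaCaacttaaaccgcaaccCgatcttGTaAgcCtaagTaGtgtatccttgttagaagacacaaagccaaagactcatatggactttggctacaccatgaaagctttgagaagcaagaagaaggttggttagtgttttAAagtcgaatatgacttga
Unit 2: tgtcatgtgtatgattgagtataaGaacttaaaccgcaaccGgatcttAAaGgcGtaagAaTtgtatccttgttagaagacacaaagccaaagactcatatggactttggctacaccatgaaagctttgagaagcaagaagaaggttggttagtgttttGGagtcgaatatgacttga

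The fourth is the core region with the highest WT score, which starts at 14272501 and lies 262 bp from the pseudogene AT3G42086. Its first 200 bases (plus strand) are chr3:14272501-14272700, and the 123 capitals mark bases covered by a word of 24 bases that occurs once in the nuclear genome.
Region from 14272501: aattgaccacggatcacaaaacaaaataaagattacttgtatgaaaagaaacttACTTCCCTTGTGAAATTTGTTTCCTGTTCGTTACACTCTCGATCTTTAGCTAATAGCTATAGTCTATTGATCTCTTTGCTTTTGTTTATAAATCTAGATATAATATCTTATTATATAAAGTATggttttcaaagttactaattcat

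The core regions were highly repeated. Words of 24 bases from a region had a median of 11 copies in the genome (1 to 91 between regions), and a median of 65.6% of a region's words (3.14% to 97.5%) also occurred on another chromosome. None of the 189 regions was mostly single-copy, and the share of a region's words that occur once ran from 0% to 67.7%. Reads of the repeated words cannot be told apart from reads of near-identical copies elsewhere. Each score below may therefore belong to a repeat family as much as to a place. By shared words the regions formed 152 families, the largest with 8 members. They lay in 114 runs of adjoining windows, 64 of them isolated windows. Their median GC content was 38.4%, against 34.6% over all 4213 regions. An annotated gene was overlapped by 46 regions, in 45 of them at an exon and in 3 at a coding exon, and 38 of the 189 overlapped a pseudogene, the class in which this annotation places most transposon remnants.

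Scores were taken as normalized abundances rounded to whole numbers, since their scaling was not given, and the depth behind them is unknown for most libraries. WT scored at least 99 in repeat 1 and 100 in repeat 2 in every core region. The nrpd1 libraries reached no more than 69 and 18, and were at 0 in 10 and 86 of the regions in the repeats. No region had an nrpd1 to WT ratio above 0.193 in repeat 1 or 0.0763 in repeat 2. The tables appear to hold only regions that met such limits, so the 189 of 189 regions lowered in nrpd1 (100% of all 4213 regions lowered, 0% raised) follow from how regions were listed and are not a result about the core. Tests between genotypes were made with limma on log2(score + 89), with Benjamini-Hochberg adjustment over all 4213 regions and a call at an adjusted p under 0.05. Every log2 change below is on that scale, which understates the change of low regions. The labels do not tell whether the repeats were grown separately, and a p-value here therefore reflects only the spread among these libraries, which may be technical.

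With the scores as deposited, small RNAs rose over most of the core in arid2/3/4, epcr1/2 and hda6. In nrpe1 more regions were called lowered than raised, although the median log2 change of the core was 0.11. In arid2/3/4, 156 of the 189 regions (82.5%) were raised and 9 (4.76%) lowered, against 38.7% raised and 28.9% lowered over all 4213 regions. In epcr1/2, 155 (82.0%) were raised and 5 (2.65%) lowered, against 52.2% and 14.8%. In hda6, 128 (67.7%) were raised and 20 (10.6%) lowered, against 25.2% and 46.4%. In nrpe1, 2 (1.06%) were raised and 27 (14.3%) lowered, against 1.02% and 44.3%.

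The median log2 change over the core was 0.94 in arid2/3/4 (0.79 and 1.11 in the repeats), 0.91 in epcr1/2 (0.75 and 1.08), 0.11 in nrpe1 (0.16 and 0.03) and 0.56 in hda6 (0.44 and 0.71). Over all 4213 regions the medians were -0.01 in arid2/3/4, 0.48 in epcr1/2, -0.09 in nrpe1 and -0.33 in hda6. The core thus stood 0.95, 0.43, 0.20 and 0.88 above the median region. Scaling the libraries to a common median moved the median of all regions to -0.30 in arid2/3/4, -0.05 in epcr1/2, 0.17 in nrpe1 and -0.34 in hda6, and that of the core to 0.65, 0.31, 0.40 and 0.58. Calls in the core then were 154 raised and 32 lowered in arid2/3/4, 101 and 33 in epcr1/2, 112 and 25 in nrpe1, and 141 and 25 in hda6. Quantile normalization gave 145 raised and 20 lowered in arid2/3/4, 112 and 18 in epcr1/2, 126 and 21 in nrpe1, and 144 and 13 in hda6. Whether most core regions were called raised in nrpe1 therefore depended on the scaling. With a pseudocount of 1 only 78 regions were raised in arid2/3/4, 74 in epcr1/2 and 6 in hda6. The hda6 count also rested on single libraries, with 58 regions raised without repeat 2 of hda6 and 74 without repeat 2 of WT. Of its 20 lowered regions 6 were in the satellite run described below and 14 were not. The 20 became 6 and 7 without repeat 1 and 2 of hda6, and 9 and 13 without repeat 1 and 2 of WT.

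**Figure D1:**
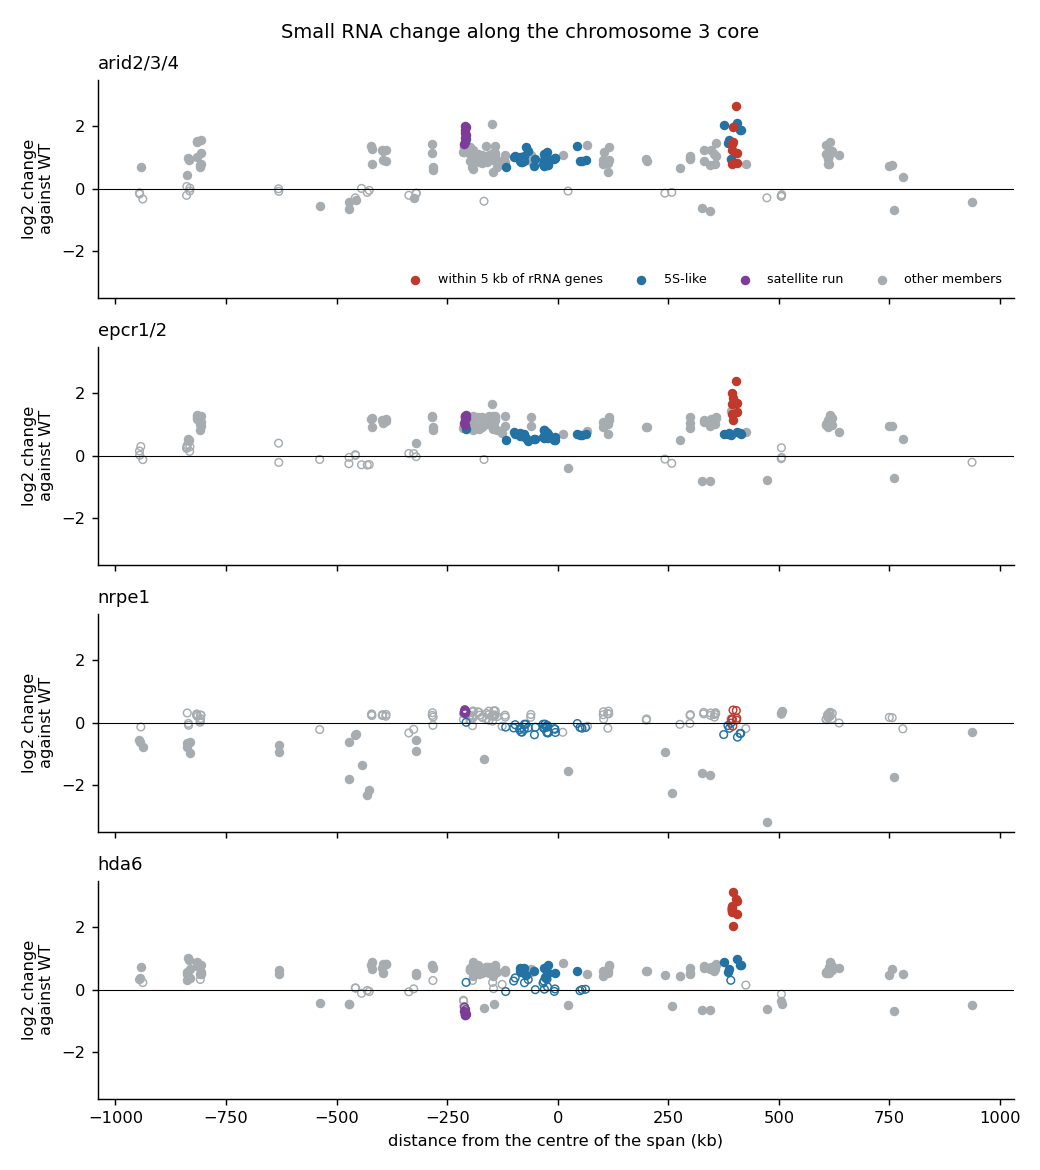
Fitted log2(score + 89) change against WT (vertical axes) of each of the 189 core regions by distance from 13.8 Mb (horizontal axis, kb), for arid2/3/4, epcr1/2, nrpe1 and hda6. Most points lie above 0 in arid2/3/4 and epcr1/2, the hda6 points near the ribosomal RNA genes reach 3.14 and those of the satellite run lie below 0, and the nrpe1 points hold near 0 apart from 27 lowered regions.

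Next to the rRNA genes of the 45S copy, small RNAs rose in hda6, epcr1/2 and arid2/3/4, with the highest scores in hda6. The copy holds the 18S gene AT3G41768 (14197677 to 14199484), the small gene AT3G41979 (14199753 to 14199916) and AT3G06365 (14200215 to 14204208), annotated as a miscellaneous RNA. Both AT3G41768 and AT3G41979 are annotated as rRNA genes. The precursor of ribosomes is transcribed from such units by RNA polymerase I. No region over these rRNA genes was in both tables, and 8 regions lay within 5 kb of them, 5 to the left of the 18S gene and 3 to the right of AT3G41979. Of these 3, that from 14203501 lies inside AT3G06365, that from 14204001 overlaps its right end and that from 14204501 lies beyond it. All 8 were raised in hda6 (median log2 change 2.64, range 2.04 to 3.14), in epcr1/2 (1.68, 1.16 to 2.39) and in arid2/3/4 (1.35, 0.79 to 2.67). In nrpe1 limma called 0 of 8 (median 0.12, 0 of 8 also at an unadjusted p under 0.05), although 7 of 8 were raised after median scaling or quantile normalization. With a pseudocount of 1 the raised counts were 5 in hda6, 4 in epcr1/2 and 2 in arid2/3/4.

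The region from 14195501 to 14196000 lies in the protein-coding gene AT3G41762, over a coding exon, and overlaps the non-coding RNA AT3G41761. It scored 6444 and 4389 in hda6, 1824 and 1454 in arid2/3/4, 1260 and 1288 in epcr1/2, 571 and 399 in nrpe1, 37 and 8 in nrpd1, and 550 and 497 in WT. Both hda6 libraries stood above every other library, and both arid2/3/4 and both epcr1/2 libraries stood above WT, while the nrpe1 and WT ranges overlapped. The log2 change was 3.14 ± 0.26 in hda6 (SE, limma adjusted p = 2.6e-31), with a mean score 10.3-fold that of WT.

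The region from 14203501 to 14204000 in AT3G06365 scored 2106 and 1678 in hda6, 1674 and 1436 in arid2/3/4, 1230 and 1300 in epcr1/2, 282 and 221 in nrpe1, 21 and 3 in nrpd1, and 176 and 163 in WT. The hda6 and arid2/3/4 ranges nearly met here, and the log2 changes against WT were 2.93 in hda6, 2.67 in arid2/3/4 and 2.39 in epcr1/2, each with an SE of 0.23 (limma adjusted p = 5.2e-35, 3.4e-28 and 6.3e-23). It was the most raised core region in both arid2/3/4 and epcr1/2.

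The regions from 14194001 and 14204501 flank the copy on either side and share 96.1% of their words, so they are close to 1 sequence measured in 2 places. The left one scored 3820 and 2611 in hda6, 814 and 768 in arid2/3/4, 1204 and 1203 in epcr1/2, 520 and 414 in nrpe1, 69 and 16 in nrpd1, and 497 and 352 in WT. The right one scored 3654 and 2490 in hda6, 702 and 649 in arid2/3/4, 1027 and 1054 in epcr1/2, 436 and 339 in nrpe1, 58 and 14 in nrpd1, and 410 and 278 in WT. In this spacer epcr1/2 stood above arid2/3/4 in both repeats with the scores as deposited. The difference of arid2/3/4 from epcr1/2 did not pass at either (log2 -0.56 each, limma adjusted p = 0.068 and 0.053). It passed at the neighbour from 14194501, which matches itself at 87.2% of bases when shifted by 100 to 250 bases, where arid2/3/4 had 711 and 631 and epcr1/2 1043 and 1024 (log2 -0.56 ± 0.21, limma adjusted p = 0.03). Among the 8 regions the number called lower in arid2/3/4 than in epcr1/2 was 0 without either repeat of arid2/3/4 or of nrpd1, repeat 2 of epcr1/2 or repeat 2 of hda6, and 4 without either repeat of nrpe1. It was 2 without repeat 1 of epcr1/2. Median scaling gave 0 of the 8 lower and 3 higher in arid2/3/4, and quantile normalization 5 lower and 0 higher. The direction between arid2/3/4 and epcr1/2 here thus depended on the scaling.

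The other 3 regions of the group start at 14193501 (over the end of the miscellaneous RNA AT3G00660), 14196001 (AT3G41762) and 14204001 (AT3G06365). Their mean scores in hda6 were 2551, 1693 and 2616, in arid2/3/4 924, 1594 and 1003, in epcr1/2 1268, 1471 and 1519, and in WT 343, 355 and 415. The genotypes were closest at 14196001, where the hda6 minus arid2/3/4 difference of 0.07 ± 0.24 on the log2 scale did not pass (SE, limma adjusted p = 0.83). A related region from 14191501 in AT3G00650, which shares 54.0% of its words with that from 14204501, lies outside the 5 kb bound and scored 2684 and 1867 in hda6, 686 and 619 in arid2/3/4, 948 and 949 in epcr1/2, 419 and 258 in nrpe1, 19 and 2 in nrpd1, and 380 and 227 in WT.

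The direct comparisons of hda6 with the other mutants were chosen after the values had been seen. Of the 189 core regions, 21 were higher in hda6 than in arid2/3/4 and 76 lower, against 8.71% and 34.5% of all regions. In hda6 against epcr1/2, 16 of the 189 were higher and 76 lower, against 3.58% and 50.6%. Without 1 library these ran from 8 higher (repeat 1 of arid2/3/4 left out) and 40 lower (repeat 2 of arid2/3/4) in the first comparison, and from 6 higher (repeat 1 of epcr1/2) and 20 lower (repeat 1 of hda6) in the second. Next to the ribosomal RNA genes 6 of 8 regions were higher in hda6 than in arid2/3/4 (median log2 change 1.33) and 7 of 8 higher than in epcr1/2 (0.84), and none was lower. The 7 became 4 without repeat 1 of epcr1/2 or repeat 1 of hda6. Over all 4213 regions the medians were -0.25 against arid2/3/4 and -0.38 against epcr1/2. The core-wide balance turned with the scaling: against epcr1/2 it was 109 higher and 15 lower in hda6 after median scaling and 84 and 13 after quantile normalization, and against arid2/3/4 it was 52 higher and 59 lower after median scaling and 62 and 23 after quantile normalization. The ribosomal group had 8 of 8 higher in hda6, and 0 lower, in both comparisons under both scalings, while a pseudocount of 1 gave 2 higher than in arid2/3/4 and 1 higher than in epcr1/2.

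The 8 regions held 28.1% and 21.8% of the summed core score in hda6, 7.14% and 5.71% in arid2/3/4, 9.24% and 8.34% in epcr1/2, 5.59% and 6.02% in nrpe1, and 5.38% and 4.68% in WT. The hda6 shares lay above those of every other genotype in that list. Without the 8 regions, hda6 still raised 120 and lowered 20 of the other 181. Chromosome 2 carries annotated ribosomal RNA genes too, with 3 regions within 5 kb of them, and all 3 were raised in hda6 (log2 change 2.02 to 3.45), arid2/3/4 (1.27 to 1.88) and epcr1/2 (1.24 to 1.78). How much of the score at either place comes from copies elsewhere was not tested.

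**Figure D2:**
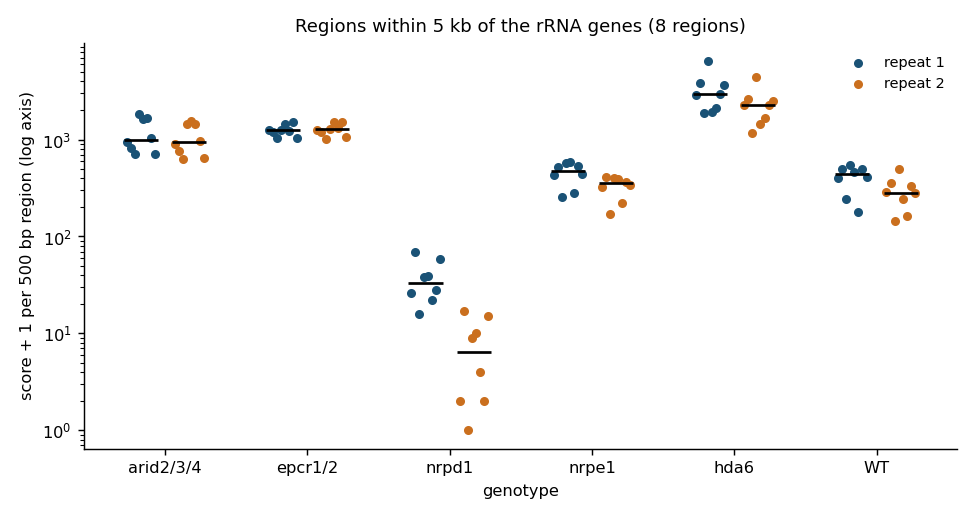
Score + 1 (log axis) of the 8 regions within 5 kb of the ribosomal RNA genes, by genotype and repeat, with a bar at the median. The hda6 medians of 2919 and 2248 lie above those of arid2/3/4, epcr1/2, nrpe1 and WT, and nrpd1 lies lowest.

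Small RNAs at the 5S-like regions rose in arid2/3/4 and epcr1/2, and in part in hda6. 5S ribosomal RNA is transcribed by RNA polymerase III from arrays that lie apart from the 45S units. A stretch with at least 70% identity (gaps allowed) to the first 5S-like line above was found in 39 core regions, all between 13592501 and 14214000, with the lowest identity at 74.2% and the next core region at 58.3%. The other 4 of the 43 such regions in the tables were 1 on chromosome 2 and 3 on chromosome 5. Within the core, 27 of the 39 lay between 13.6 and 13.8 Mb. The list was made after the values had been seen, and it is described by its counts.

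All 39 were raised in arid2/3/4 and none lowered (median log2 change 1.00, range 0.69 to 2.10). All 39 were raised in epcr1/2 as well, with a median of 0.70 and a range of 0.49 to 0.87. That count fell to 23 without repeat 2 of epcr1/2, and to 0 after median scaling and 5 after quantile normalization, whereas 39 and 34 were raised in arid2/3/4 under the same scalings. With a pseudocount of 1, 16 were raised in arid2/3/4, 0 in epcr1/2 and 0 in hda6. In hda6 20 were raised and 0 lowered (median 0.41), with 13 raised without repeat 1 of hda6 and 9 without repeat 2. In nrpe1 limma called 0 (median -0.17), with 0 raised and 2 lowered at an unadjusted p under 0.05. Without repeat 1 of nrpe1, 13 of the 39 were lowered in nrpe1.

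In arid2/3/4 against epcr1/2, 15 of the 189 core regions were higher, a share close to the 6.84% of all regions. Lower were 8 of the 189, a smaller share than the 23.6% of all regions. Of the 15, 13 were 5S-like, and the other 2 start at 12964501 and 13867001. The median log2 difference over the 39 was 0.28 (0.34 and 0.29 in the repeats), against -0.08 over all regions. The core count was 8 without repeat 1 of epcr1/2, 9 without repeat 2 of arid2/3/4 and 26 without either repeat of nrpe1. For the 5S-like list it was 8 without repeat 1 of epcr1/2. Median scaling gave 119 core regions higher and 2 lower, with 39 5S-like regions and 69 outside the 3 groups among the 119, and quantile normalization 39 higher and 8 lower, with 17 5S-like regions among the 39. With only the compared groups in the fit, 73 were higher, 36 of them 5S-like, and 48 lower. That most of the higher regions were 5S-like was therefore seen with the scores as deposited and not after these changes.

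The largest difference was at the region from 14206001 to 14206500, which lies 1793 bp from AT3G06365 on the right of the 45S copy. It scored 1541 and 1660 in arid2/3/4, 539 and 618 in epcr1/2, 248 and 155 in nrpe1, 707 and 667 in hda6, 23 and 6 in nrpd1, and 355 and 262 in WT. Both arid2/3/4 libraries were more than double any other library, and both hda6 libraries stood above both of epcr1/2. The arid2/3/4 minus epcr1/2 difference was 1.34 ± 0.21 on the log2 scale (SE, limma adjusted p = 8.0e-09), a 2.77-fold higher mean score. The region from 14175001 to 14175500 shares 79.5% of its words with it on the opposite strand, and scored 1616 and 1757 in arid2/3/4, 569 and 663 in epcr1/2, 280 and 211 in nrpe1, 730 and 693 in hda6, 60 and 10 in nrpd1, and 372 and 317 in WT (log2 difference of arid2/3/4 from epcr1/2 1.33 ± 0.22, limma adjusted p = 2.7e-08).

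The regions from 14212001 and 14213501, the one from 14213501 in the miscellaneous RNA AT3G00670, share 71.9% of their words. They scored 1521 and 1637, and 1516 and 1614, in arid2/3/4, against 638 and 677, and 636 and 655, in epcr1/2 (log2 differences 1.16 and 1.17, limma adjusted p = 2.5e-06 and 2.1e-06). In WT they had 405 and 322, and 394 and 331. These 4 regions belong to the 7 of the 39 that lie within 30 kb of the 45S genes. The bound of 30 kb was set after the values were seen, and the 4 regions had been named for the largest differences from epcr1/2. The counts in the 7 therefore partly restate that choice, and some of the 7 share up to 79.5% of their words. In those 7 the median log2 change in arid2/3/4 was 1.88, and 6 of the 7 were higher in arid2/3/4 than in epcr1/2. In the 32 farther away it was 0.96, with 7 of 32 higher. In epcr1/2 the medians against WT were 0.71 and 0.67. The difference between the near and the far group was not tested.

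In hda6 against arid2/3/4, 29 of the 39 were lower and 0 higher (median log2 change -0.75), and in hda6 against epcr1/2 13 were lower (-0.16). Over all 4213 regions 34.5% were lower in hda6 than in arid2/3/4, with a median of -0.25. Against epcr1/2 it was 50.6%, with a median of -0.38, so the 5S-like regions were lowered less there than the median region. Median scaling gave 26 lower and 2 higher in hda6 than in arid2/3/4, and quantile normalization 9 lower and 11 higher. The 13 became 1 without repeat 1 of hda6, 8 without repeat 2 of hda6, 3 without repeat 2 of epcr1/2 and 0 after either scaling. Against epcr1/2 the direction turned, with 22 of the 39 higher in hda6 after median scaling and 20 after quantile normalization. The order of hda6 and epcr1/2 at the 5S-like regions thus depended on the scaling. Against arid2/3/4, most of these regions stayed lower in hda6 after median scaling but not after quantile normalization.

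**Figure D3:**
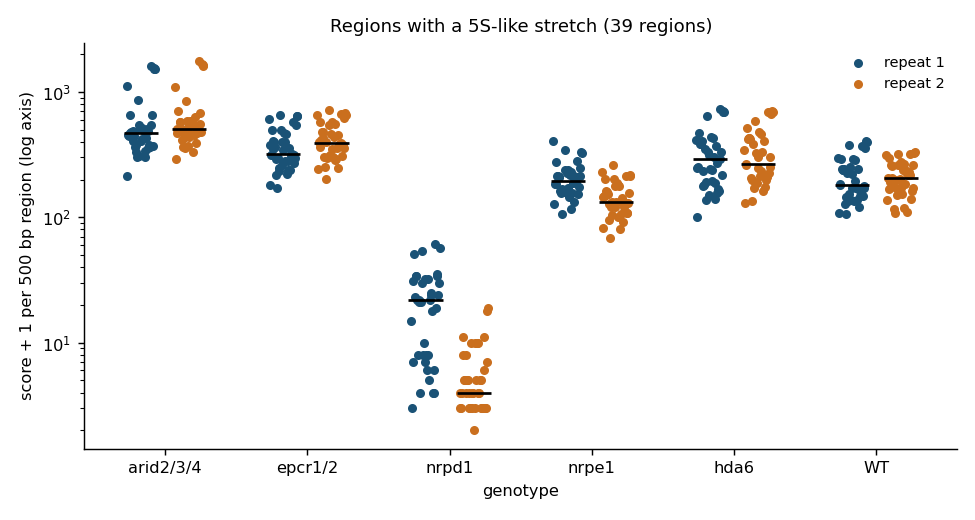
Score + 1 (log axis) of the 39 5S-like regions by genotype and repeat, with a bar at the median. The arid2/3/4 medians of 466 and 502 are the highest, followed by epcr1/2 at 321 and 387, and WT lies at 181 and 203.

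At the satellite run small RNAs rose in arid2/3/4 and epcr1/2 and were lower in hda6. The longest run of adjoining regions spans 13588501 to 13593000 in 9 windows, 8 of them without the 5S-like stretch that lies in the last. In 6 of these the sequence matched itself best at a lag of 178 bases, at 92.2% to 96.6% of bases, which is the length of the centromeric repeat of this species as printed above. No gene is annotated in the run. The 8 windows had the highest copy numbers of the groups described (median 76 copies), and 4 of the 5 highest WT scores of the core were among them.

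All 8 were raised in arid2/3/4 (median log2 change 1.77, range 1.43 to 2.03) and in epcr1/2 (1.22, 0.99 to 1.31), and limma called 0 in nrpe1 (0.35, and 0 at an unadjusted p under 0.05). Under quantile normalization 4 were raised in arid2/3/4 and 4 in epcr1/2, and with a pseudocount 10 times smaller 2 in epcr1/2. A pseudocount of 1 left 0 of 8 raised in either mutant. In nrpe1, 8 were raised after median scaling, 6 after quantile normalization and 3 without repeat 2 of nrpe1. In hda6 0 were raised and 6 of 8 lowered (median -0.73, range -0.80 to -0.56). Over all 4213 regions 25.2% were raised and 46.4% lowered in hda6, with a median log2 change of -0.33. At an unadjusted p under 0.05 all 8 windows were lower in hda6. The count of 6 was 0 without repeat 1 of WT or of hda6, 1 without repeat 2 of either, 3 under quantile normalization and 0 with a pseudocount 10 times smaller, while 8 were called after median scaling.

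The region from 13590501 to 13591000 scored 7355 and 9036 in arid2/3/4, 4858 and 5663 in epcr1/2, 3394 and 2213 in nrpe1, 1111 and 1255 in hda6, 57 and 7 in nrpd1, and 2216 and 2045 in WT. Apart from nrpd1 the hda6 libraries were the lowest, at a mean 0.555-fold that of WT. The nrpe1 range overlapped that of WT, and those of arid2/3/4, epcr1/2 and hda6 stood apart from it. The log2 change in hda6 was -0.80 ± 0.33 (SE, limma adjusted p = 0.022), against 1.89 in arid2/3/4 and 1.27 in epcr1/2. Its neighbours from 13590001, 13591001 and 13592001 were the other most lowered regions in hda6, with mean scores of 1104, 978 and 1094 in hda6 and 1981, 1726 and 1920 in WT (limma adjusted p = 0.02, 0.022 and 0.026).

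Set directly against the other mutants, hda6 was lower at all 8 windows, by a median log2 change of -2.49 against arid2/3/4 and -1.97 against epcr1/2. The counts were 8 after both scalings as well, while a pseudocount of 1 gave 1 of 8 against epcr1/2. The run of 9 windows made up 33.2% and 35.4% of the summed core score in arid2/3/4, 26.8% and 27.4% in epcr1/2, 31.9% and 31.4% in nrpe1, 7.97% and 9.93% in hda6, and 22.3% and 25.7% in WT. On the other chromosomes 378 regions matched themselves at 60% or more at a lag of 177 to 179 bases. Of these 376 were raised in arid2/3/4 and 378 in epcr1/2, and 224 were lowered and 0 raised in hda6, with a median log2 change of -0.51. Over all 4213 regions 38.7% were raised in arid2/3/4 and 52.2% in epcr1/2, and 46.4% were lowered in hda6, with a median of -0.33. The run on chromosome 3 shares reads with these arrays to an extent that was not tested.

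**Figure D4:**
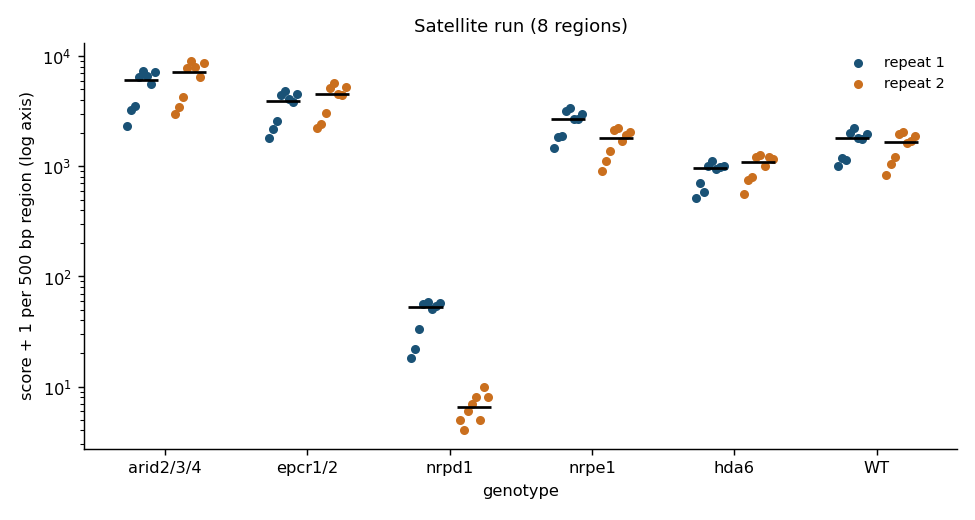
Score + 1 (log axis) of the 8 windows of the satellite run by genotype and repeat, with a bar at the median. The medians are 6045 and 7176 in arid2/3/4, 3963 and 4506 in epcr1/2, 965 and 1091 in hda6, and 1802 and 1670 in WT.

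Loss of RNA polymerase V lowered 27 core regions (14.3%), a smaller share than the 44.3% of all 4213 regions. None of the 27 was next to the 45S genes, 5S-like or in the satellite run. From 12.8 to 13 Mb 7 of 19 regions were lowered, from 13 to 13.2 Mb 2 of 2, and from 13.2 to 13.4 Mb 7 of 11. From 13.6 to 13.8 Mb, the stretch with most regions, it was 1 of 62. Their median GC content was 32.6% and their median copy number 5, against 38.4% and 11 for the core. Of the 38 pseudogene regions 10 were lowered, and of the 143 regions without an annotated gene 16. The count was 44 without repeat 1 of nrpe1.

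The region from 14272501 to 14273000 scored 257 and 152 in nrpe1, 1816 and 2284 in arid2/3/4, 1249 and 1602 in epcr1/2, 1531 and 1703 in hda6, 9 and 4 in nrpd1, and 3088 and 2041 in WT. The nrpe1 libraries lay far below every other library except those of nrpd1. The log2 change in nrpe1 was -3.17 ± 0.26 (SE, limma adjusted p = 2.0e-33), with 0.0797 of the mean WT score. The same region was lowered in epcr1/2 (log2 -0.79, limma adjusted p = 0.0035) and in hda6 (-0.61, limma adjusted p = 0.027). In arid2/3/4 its change did not pass (-0.29, limma adjusted p = 0.32). Its words had a median of 2 copies, with 32.7% of them found once in the genome and 52.4% also on another chromosome.

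The region from 13369001 to 13369500 in the protein-coding gene AT3G32410 scored 103 and 60 in nrpe1, against 890 and 629 in WT, which is -2.31 ± 0.21 on the log2 scale (SE, limma adjusted p = 1.2e-27). In arid2/3/4 it had 589 and 793, in epcr1/2 553 and 636 and in hda6 685 and 792, ranges that met or overlapped that of WT. The region from 14057501, 308 bp from the pseudogene AT3G33570 and with a median of 1 copy, had 63 and 39 in nrpe1 and 652 and 498 in WT (log2 -2.24, limma adjusted p = 6.7e-30). The region from 13373501 in the pseudogene AT3G32415 had 98 and 53 in nrpe1 and 760 and 548 in WT (log2 -2.17, limma adjusted p = 5.8e-26).

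The 2 regions raised in nrpe1 start at 14306001 and 14305001, between genes. The first scored 194 and 234 in nrpe1 and 126 and 159 in WT, and the second 167 and 163 in nrpe1 and 111 and 116 in WT (log2 0.39 and 0.33, limma adjusted p = 0.024 and 0.038). Without repeat 2 of nrpe1 58 core regions were raised in nrpe1, without repeat 1 of hda6 0, and without repeat 1 or 2 of nrpd1, repeat 1 of nrpe1, repeat 2 of hda6 or repeat 2 of WT 1.

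With the scores as deposited 9 core regions fell in arid2/3/4 and 5 in epcr1/2, while median scaling gave 32 and 33 and quantile normalization 20 and 18. The region from 14143001, 869 bp from the pseudogene AT3G36411, scored 110 and 167 in arid2/3/4, 99 and 147 in epcr1/2, 26 and 27 in nrpe1, 136 and 153 in hda6, and 274 and 288 in WT. Its log2 changes were -0.71 in arid2/3/4 and -0.81 in epcr1/2 (limma adjusted p = 5.5e-06 and 2.8e-07). The region from 14559001 in the pseudogene AT3G42433 fell by 0.69 in arid2/3/4 and by 0.72 in epcr1/2 on the log2 scale, and that from 14127001 by 0.62 and 0.80. Both also stood below WT in nrpe1 and hda6. That from 14559001 scored 42 and 31 in nrpe1, 168 and 181 in hda6, and 328 and 333 in WT. That from 14127001 scored 36 and 28 in nrpe1, 135 and 156 in hda6, and 275 and 283 in WT. The region from 13327501 was lowered in arid2/3/4, with 217 and 231 against 473 and 337 in WT, and it scored 65 and 37 in nrpe1. The comparisons share their WT libraries. The 5 lowered in epcr1/2 were 3 without repeat 1 of WT or repeat 1 of epcr1/2.

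Outside the ribosomal, 5S-like and satellite groups, 134 regions remained. Of these 101 were raised and 9 lowered in arid2/3/4, in epcr1/2 100 and 5, in nrpe1 2 and 27, and in hda6 100 and 14. The shares over all 4213 regions were 38.7% raised and 28.9% lowered in arid2/3/4, and 52.2% and 14.8% in epcr1/2. They were 1.02% and 44.3% in nrpe1, and 25.2% and 46.4% in hda6. Of the 100 raised in hda6, the count was 41 without repeat 2 of hda6 and 52 without repeat 2 of WT. The most raised of them in arid2/3/4 starts at 13651001, in the pseudogene AT3G33067, and scored 1102 and 801 in arid2/3/4, 620 and 739 in epcr1/2, 250 and 148 in nrpe1, 363 and 249 in hda6, 5 and 2 in nrpd1, and 205 and 112 in WT. Its log2 change was 2.08 ± 0.20 in arid2/3/4 (SE, limma adjusted p = 2.4e-23).

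A few of these regions were lower in arid2/3/4 than in epcr1/2. Those from 13480001, 13652501 and 14305501 had mean scores of 176, 289 and 109 in arid2/3/4 and of 296, 450 and 190 in epcr1/2, against 216, 172 and 144 in WT (log2 -0.54, -0.51 and -0.49, limma adjusted p = 0.01, 0.019 and 0.0092). The 8 core regions called lower were 1 without repeat 1 of arid2/3/4, 3 without repeat 2 of arid2/3/4, 0 without repeat 2 of epcr1/2 and 16 without either repeat of nrpe1.

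Along the core the changes were uneven. Of the 62 regions from 13.6 to 13.8 Mb, 61 were raised in arid2/3/4, 61 in epcr1/2 and 42 in hda6. From 13.2 to 13.4 Mb it was 3, 3 and 3 of 11, with 4 lowered in arid2/3/4, 0 in epcr1/2 and 3 in hda6. From 12.8 to 13 Mb 16 of 19 were raised in hda6, 12 in arid2/3/4 and 10 in epcr1/2. From 14.4 to 14.6 Mb 15 of 16 were raised in arid2/3/4, in epcr1/2 and in hda6.

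Rises were found at regions of few copies and of many. Of the regions raised in arid2/3/4, 40 were among the 59 with a median of 1 to 5 copies and 35 among the 38 with 31 to 100 copies, with median log2 changes of 0.89 and 1.00. In epcr1/2 41 and 35 were raised (0.76 and 1.02), and in hda6 34 and 26 (0.53 and 0.54). In nrpe1 14 of the 59 and 3 of the 38 were lowered.

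Compared with the other pericentromere cores, set in the same width at 15.1, 3.6, 4.0 and 11.7 Mb of chromosomes 1, 2, 4 and 5, the chromosome 3 core had the highest median change in hda6. That median was 0.56 on chromosome 3, against -0.30, -0.07, 0.20 and -0.13 on chromosomes 1, 2, 4 and 5. In hda6 175 of 579 regions were raised and 216 lowered on chromosome 1, 49 and 47 of 141 on chromosome 2, 127 and 107 of 273 on chromosome 4, and 215 and 119 of 539 on chromosome 5. Without the regions next to the ribosomal RNA genes the chromosome 3 median was 0.54. For arid2/3/4 the chromosome 3 median of 0.94 stood beside 0.19, 0.97, 1.12 and 1.20, and in epcr1/2 0.91 stood beside 0.91, 1.01, 1.07 and 0.99. The cores share repeat families and libraries, and the differences between them were not tested.

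**Figure D5:**
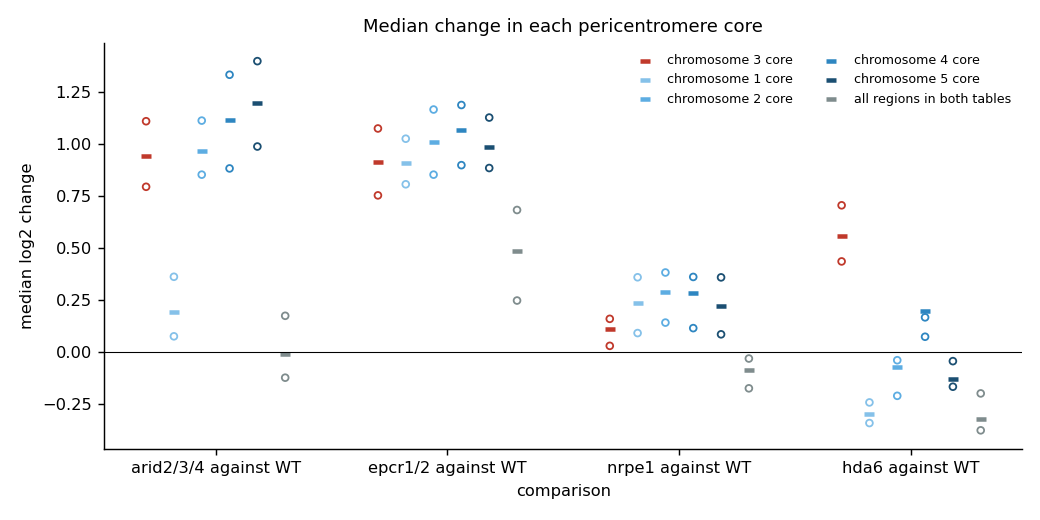
Median fitted log2(score + 89) change against WT (vertical axis) of the regions in the 5 pericentromere cores for arid2/3/4, epcr1/2, nrpe1 and hda6, with points for the repeats. In hda6 chromosome 3 has the highest median, at 0.56, and in arid2/3/4 chromosome 1 the lowest, at 0.19.

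At the edges of the core, the first region inside starts at 12854001 and scored 118 and 153 in arid2/3/4, 171 and 197 in epcr1/2, 211 and 226 in hda6, and 181 and 134 in WT. The last one outside below it starts at 12779001, with 162 and 115 in arid2/3/4, 107 and 201 in epcr1/2, 52 and 52 in hda6, and 137 and 167 in WT. The last inside starts at 14736501, with 52 and 75 in arid2/3/4 and 105 and 127 in WT. The first outside above it starts at 14814001, with 563 and 686 in arid2/3/4 and 235 and 175 in WT.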

How the data were processed

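Small RNA libraries of 6 genotypes, 2 repeats each, were grouped by their titles. Per the submitters' processing notes the authors used Bowtie 0.12.2 and the TAIR10 build. They deposited 1 table per repeat (5843 and 4495 regions) with a whole-number score per genotype. The scaling of the scores, the read lengths kept, the treatment of reads with several places and the choice of regions were not given in the sources used here. In 5 of 10 columns searched whole numbers recurred with a regular period, so the scores were taken as rounded normalized values, not counts, and no counting interval is given. Positions in the tables start at 0 and are printed here with the first base as 1. Genes and sequences came from RefSeq TAIR10.1, whose chromosome lengths hold every region.

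Scores of the 4213 regions in both tables, with no filter on low values, were fitted with limma 3.58.1 in R 4.3.3 on log2(score + 89), the pseudocount of 89 being the 25th percentile of all scores above 0. The model had genotype and the repeat as a block, because each table holds 1 repeat, over all 12 libraries, with a trended prior and 5 residual degrees of freedom. The prior's degrees of freedom were infinite, so each region took its spread from the trend with mean score, on which the smallest p-values depend. The fit was tested on simulated data.

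Regions of 1 family share at least 50% of their words of 24 bases, and mostly single-copy means that at least 80% of words occur once. Named regions are the 4 most raised and 4 most lowered called regions of each comparison that moved the same way in both tables, the 5 with the highest WT score, and all within 5 kb of a ribosomal RNA gene. The members, lists and rules were chosen with earlier results of these data known. The 5S-like list and its bound of 30 kb, the satellite lag, further regions of the 5S-like group and the 2 direct comparisons with hda6 were chosen after the values were seen. Alternatives were other pseudocounts and scalings, no block, no trend, only the compared groups, regions above the lower quartile, and leaving out each library.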

Additional observations from a re-analysis of the deposited data

How the results depend on the processing

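Counts of core regions raised and lowered under each alternative are from limma, and where a count moved by over 1.5 times the cause was not tested. With a pseudocount of 1, 78 regions were raised and 0 lowered in arid2/3/4, 74 and 2 in epcr1/2, 0 raised in nrpe1, 6 and 0 in hda6, 0 and 0 in arid2/3/4 against epcr1/2, 2 and 11 in hda6 against arid2/3/4, and 1 and 3 in hda6 against epcr1/2. With a pseudocount 10 times smaller, 3 were lowered in epcr1/2, 0 raised in nrpe1, 12 lowered in hda6, 4 lowered in arid2/3/4 against epcr1/2, and 9 raised and 43 lowered in hda6 against epcr1/2. Median scaling gave 32 lowered in arid2/3/4, 101 raised and 33 lowered in epcr1/2, 112 raised in nrpe1, 119 raised and 2 lowered in arid2/3/4 against epcr1/2, 52 raised in hda6 against arid2/3/4, and 109 raised and 15 lowered in hda6 against epcr1/2. Quantile normalization gave 20 lowered in arid2/3/4, 18 lowered in epcr1/2, 126 raised in nrpe1, 13 lowered in hda6, 39 raised in arid2/3/4 against epcr1/2, 62 raised and 23 lowered in hda6 against arid2/3/4, and 84 raised and 13 lowered in hda6 against epcr1/2, and it turned the nrpe1 change of the region from 14184501 to 0.43. Without the variance trend 8 were raised in nrpe1 and 28 in arid2/3/4 against epcr1/2. With only the compared groups in the fit, 14 were raised in nrpe1, 73 raised and 48 lowered in arid2/3/4 against epcr1/2, 127 lowered in hda6 against arid2/3/4 and 118 lowered in hda6 against epcr1/2. Among regions above the lower quartile 5 were lowered in arid2/3/4, 1 raised in nrpe1 and 5 lowered in arid2/3/4 against epcr1/2.

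Leaving out 1 library at a time gave 152 to 156 raised and 7 to 13 lowered in arid2/3/4, 134 to 160 and 3 to 6 in epcr1/2, 0 and 189 in nrpd1, 0 to 58 and 20 to 44 in nrpe1, 58 to 136 and 6 to 23 in hda6, 8 to 26 and 0 to 16 in arid2/3/4 against epcr1/2, 8 to 21 and 40 to 99 in hda6 against arid2/3/4, and 6 to 17 and 20 to 110 in hda6 against epcr1/2. A genotype left with 1 library is assumed to vary like the others. Lowered regions in hda6 were 6 without repeat 1 of hda6, 7 without repeat 2 of hda6, 9 without repeat 1 of WT and 13 without repeat 2 of WT.

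Without the replicate block the calls raised and lowered were 156 and 9 in arid2/3/4, 155 and 5 in epcr1/2, 2 and 27 in nrpe1, 128 and 22 in hda6, and 16 and 8 in arid2/3/4 against epcr1/2, so the block changed no count by over 1.5 times. Repeat numbers mark the table and no shared culture is stated, and correlations of the repeat differences between genotypes ran from -0.161 to 0.639. Depth is unknown for most libraries, so a difference that did not pass is not shown to be absent.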

Other observations

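In the same span 98 regions were listed in the repeat 1 table alone and 33 in the repeat 2 table alone, and they entered no test. The 98 had median scores of 257 in arid2/3/4, 225 in epcr1/2, 138 in nrpe1, 196.5 in hda6, 2 in nrpd1 and 116.5 in WT, and stood above WT in 87, 90, 75, 93 and 0 regions in the order of the 5 mutants. The 33 had medians of 398 in arid2/3/4, 285 in epcr1/2, 139 in nrpe1, 166 in hda6, 5 in nrpd1 and 153 in WT, with 29, 30, 5, 20 and 0 regions above WT. Each of these medians comes from 1 library per genotype. In nrpe1 the share of such regions above WT differed between the tables, and no test was made of it.

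Scores left in nrpd1 differed between the groups of core regions. In repeat 1 the nrpd1 median was 51.5 in the 8 satellite windows, 32 in the 8 regions next to the 45S ribosomal RNA genes, 21 in the 39 5S-like regions and 2 in the other 134. In repeat 2 the nrpd1 medians were 5.5, 5.5, 3 and 0 for the same groups. The WT medians of repeat 1 were 1802 in the satellite windows, 437.5 next to the 45S genes, 181 in the 5S-like regions and 200.5 in the others. In that repeat the 5S-like regions thus had more nrpd1 score than the others at a similar WT score. In repeat 2 their WT median was higher too, at 203 against 147 in the others. The regions appear to have been listed for low nrpd1 scores, and this difference was not tested.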
